A study of Caenorhabditis elegans with 32 samples.

Results

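The 10 genes described here encode cuticle collagens of *Caenorhabditis elegans* that are known by the body shape they give when mutated. They were chosen by name as the furrow genes *dpy-2*, *dpy-3*, *dpy-7*, *dpy-8* and *dpy-10*, the blister genes *bli-1* and *bli-2*, and the roller and squat genes *rol-6*, *sqt-1* and *sqt-3*. All 10 were found among the 46589 genes of the table, of which 27096 had at least 1 count, and all 10 passed the filter on low counts in every comparison. The rule used no measured value, but the genes were chosen with earlier results of these data known.

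The cuticle is a collagen coat that the epidermis secretes anew at each molt. Its collagen genes are transcribed in pulses during the molting cycle, with the furrow genes known as an early wave. Furrow collagens are needed for the circumferential grooves of the cuticle and mutants are short and fat (dumpy), the struts that join the layers of the adult cuticle need the blister collagens, and changes in the roller and squat collagens twist or shorten the body.

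RNA-seq was performed on whole animals, with 4 replicates in each of 8 groups, to find genes that respond to *pgph-2* and that depend on HLH-30 without and with excess glucose. *pgph-2* encodes a phosphatase that makes glycerol from glycerol-3-phosphate, and *hlh-30* encodes the worm homolog of the transcription factor TFEB. The *pgph-2 o/e* animals carry an integrated transgene with *pgph-2* behind a cloned stretch of its own promoter, together with an mCherry marker, and the groups here have no line with the marker alone. The *hlh-30* animals carry the tm1978 allele, the *pgph-2 o/e; hlh-30* animals carry both, and WT is the Bristol strain N2. Each genotype was raised on plates with glucose at 2% and on plain normal growth medium (NGM), with the bacterium OP50 as food at the same temperature in every group. The labels call the animals L4/young adult and the methods young adult, so the exact stage is not given, and the last molt separates the L4 larva from the adult. In RNA of whole animals, fewer cells of a type and less RNA per cell cannot be told apart.

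The 32 libraries held 16750042 to 29794842 counts, and levels are given as CPM, the counts scaled to library size after TMM normalization. The 10 genes took 0.107% to 0.675% of the counts of a library. *pgph-2* stood at 60.0 to 86.9 CPM in *pgph-2 o/e* and 29.9 to 43.4 CPM in WT on NGM. On glucose it stood at 108 to 145 CPM in *pgph-2 o/e* and 62.3 to 74.4 CPM in WT. In *pgph-2 o/e; hlh-30*, *pgph-2* stood at 106 to 137 CPM on NGM and 73.7 to 90.5 CPM on glucose. Each of these libraries was above those of *pgph-2 o/e* on NGM and below them on glucose, so these strains differed in *pgph-2* RNA as well. *hlh-30* stood at 50.7 to 61.4 CPM in *hlh-30* and 86.1 to 105 CPM in WT on NGM, and counts over a whole gene do not show where an allele is deleted. Some libraries stood apart from their group in the collagen genes. Replicate 4 of *hlh-30* on NGM was the lowest of its group in all 10 genes, replicate 2 of *pgph-2 o/e; hlh-30* on NGM was the lowest in all except *rol-6*, and replicate 3 of *hlh-30* on glucose was the highest in all except *rol-6*. Calls that change without 1 library are given with it left out. P values measure the spread between the 4 libraries of a group, which the methods call biological replicates.

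The furrow genes lie on chromosomes II and X of the WBcel235 build. By the deposited positions, *dpy-2* (T14B4.6) spans II 6714292 to 6715997 on the plus strand, and *dpy-10* (T14B4.7) is its neighbour at II 6710150 to 6712227 on the minus strand. *dpy-3* (EGAP7.1, X 2144602 to 2145647), *dpy-7* (F46C8.6, X 7536460 to 7537794) and *dpy-8* (C31H2.2, X 5148678 to 5150476) are on the minus strand. *bli-1* (C09G5.6, II 10708960 to 10712125, plus strand) and *bli-2* (F59E12.12, II 5651410 to 5652426, minus strand) lie apart on chromosome II, as do *rol-6* (T01B7.7, II 8733050 to 8734314, plus strand) and *sqt-1* (B0491.2, II 11336691 to 11337835, minus strand). *sqt-3* (F23H12.4) spans V 12352994 to 12354314 on the plus strand. The counts are sums over the exons of a gene, and these genes have 2 to 5 exons in the reference annotation. Exons of *dpy-8* share 109 bases with C31H2.14, which had 32 counts over all libraries, and those of *bli-1* share 7 bases with *dph-2*, which had 11677 counts against 289427 of *bli-1*. Whether counting used the strand is not given in the sources used here. *bli-2* shares no exon base with *zyg-1*, which overlaps its span.

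Per kilobase of exon, *sqt-3* was the most abundant of the genes, with a mean of 790 CPM per kilobase over the 32 libraries. *sqt-1* followed with 534, *bli-2* with 303 and *rol-6* with 275 CPM per kilobase. The furrow genes stood close together, from *dpy-10* with 126 to *dpy-7* with 187 CPM per kilobase, and *bli-1* was in the same range with 146. Exon lengths of the reference annotation were used, because the deposited length of *dpy-10*, 2942 bases, exceeds its span of 2078 bases. The lowest count of any of these genes in a library was 450, for *bli-2*, so counting error was small beside the spread between replicates.

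**Figure D1:**
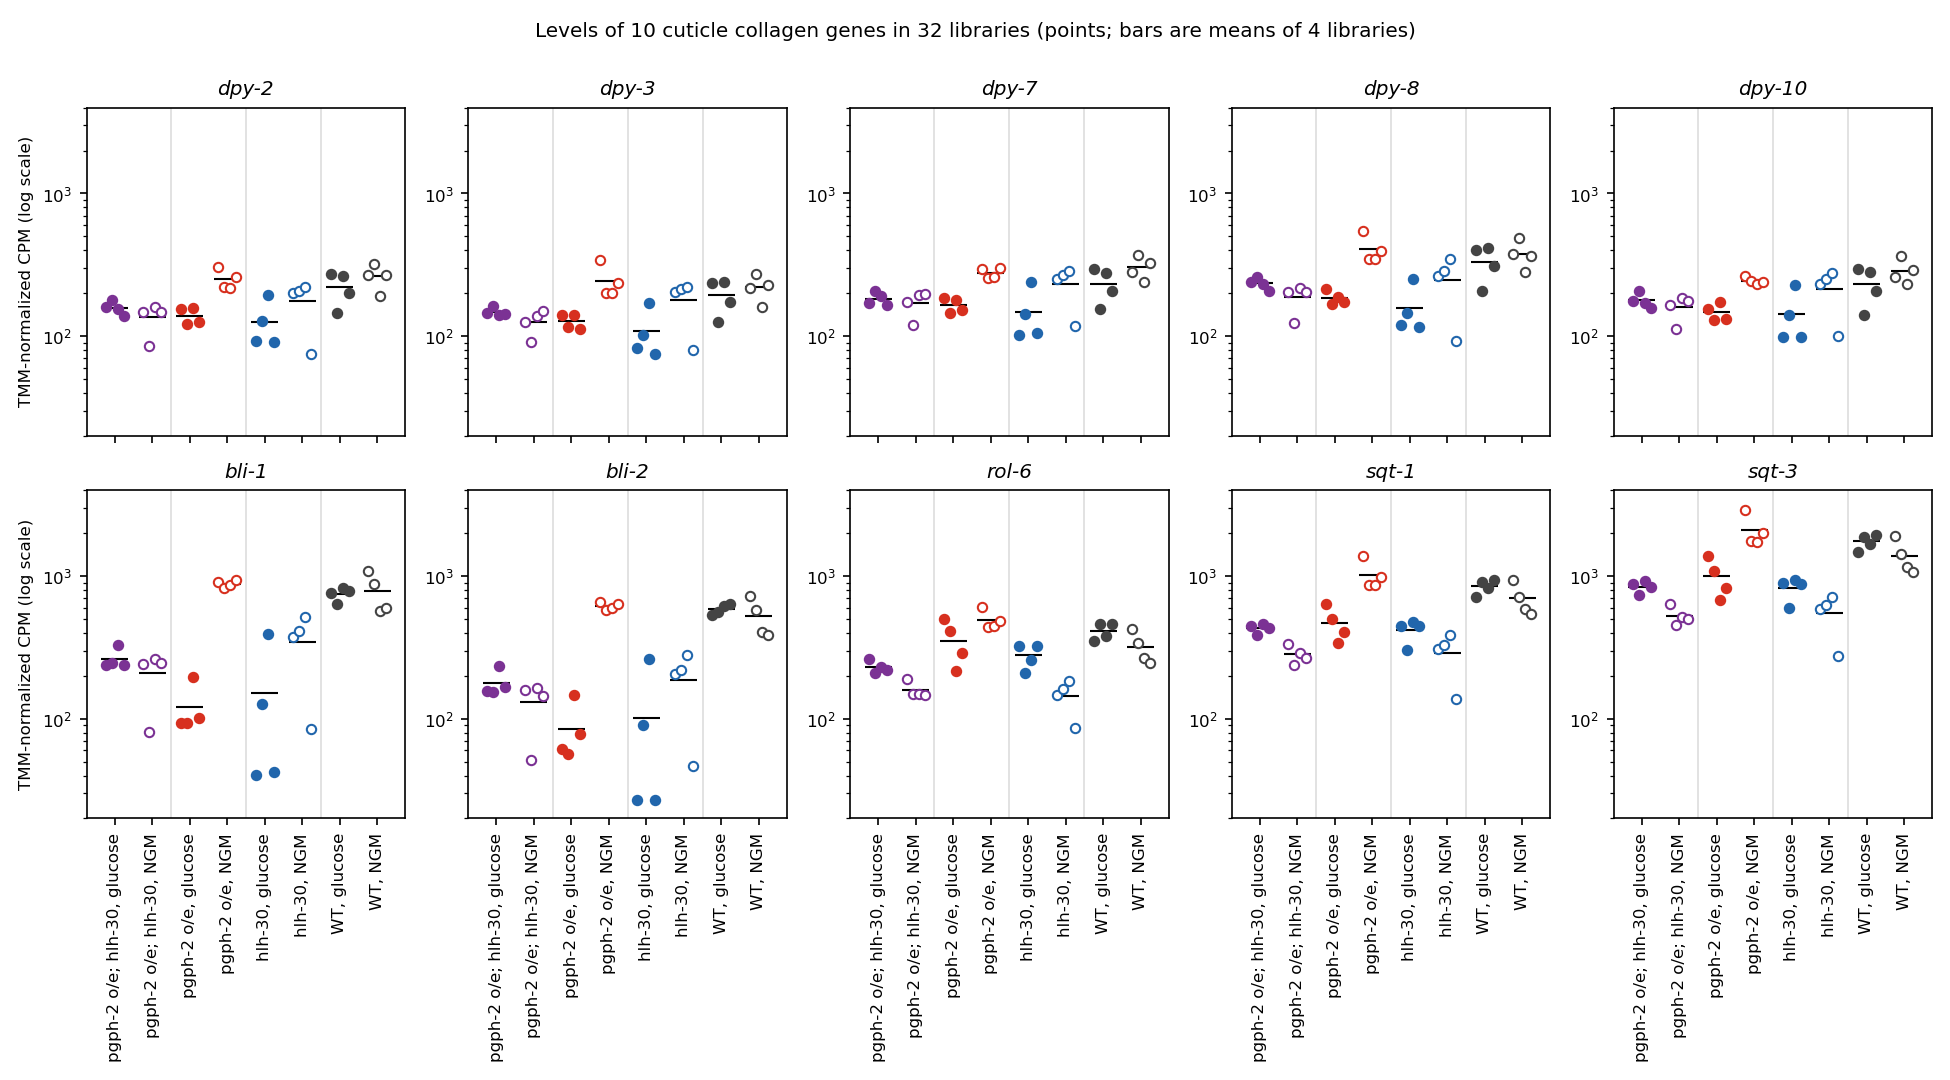
CPM on a log scale (vertical axis) of the 10 genes in each library, with a panel for each gene and 8 groups along the horizontal axis. Points are libraries (filled on glucose, open on NGM) and bars are means of 4. *bli-1* and *bli-2* span a wider range than the other genes, with *bli-2* between 27.0 and 723 CPM.

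The blister genes varied most between groups. The group means of *bli-1* lay between 121 and 886 CPM, a ratio of 7.34, and those of *bli-2* between 85.4 and 619 CPM, a ratio of 7.24. The ratio of the highest to the lowest group mean was 3.43 for *rol-6*, 3.62 for *sqt-1* and 3.98 for *sqt-3*, and between 2.02 for *dpy-10* and 2.59 for *dpy-8* among the furrow genes. WT on both media and *pgph-2 o/e* on NGM held the 3 highest means of the furrow and blister genes and of *sqt-1* and *sqt-3*. For *bli-1*, every library of these 3 groups was above every library of the group next in order, *hlh-30* on NGM, and for *bli-2* likewise, and neighbours among the other groups overlapped. In the furrow genes each pair of neighbours in the order overlapped. *rol-6* had another order, in which *pgph-2 o/e* on glucose (353 ± 126 CPM) stood above WT on NGM (319 ± 82.0 CPM, SD, n = 4 each), and these 2 groups overlapped. The 6 groups with the highest means of *rol-6* ended with *pgph-2 o/e; hlh-30* on glucose, each library of which was above each of *pgph-2 o/e; hlh-30* on NGM.

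Levels of the 10 genes were more alike within each of the 3 named sets than between them. Over the 32 libraries, Pearson's r of log2 CPM was 0.949 to 0.986 in the 10 pairs of furrow genes, 0.994 for *bli-1* and *bli-2*, and 0.937 to 0.998 in the 3 pairs of *rol-6*, *sqt-1* and *sqt-3*. Between sets it was 0.852 to 0.910 for blister with furrow genes, 0.381 to 0.701 for blister with roller and squat genes, and 0.262 to 0.726 for furrow with roller and squat genes. After removal of the group means, r was 0.948 to 0.983 within the furrow set, 0.993 for *bli-1* and *bli-2*, and 0.921 to 0.995 among *rol-6*, *sqt-1* and *sqt-3*. Between sets it was then 0.752 to 0.846 for blister with furrow genes and 0.112 to 0.606 for furrow with roller and squat genes. For blister with roller and squat genes it was 0.0693 to 0.406. These values describe 32 libraries, in which the genes share the same animals and the same depth.

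**Figure D2:**
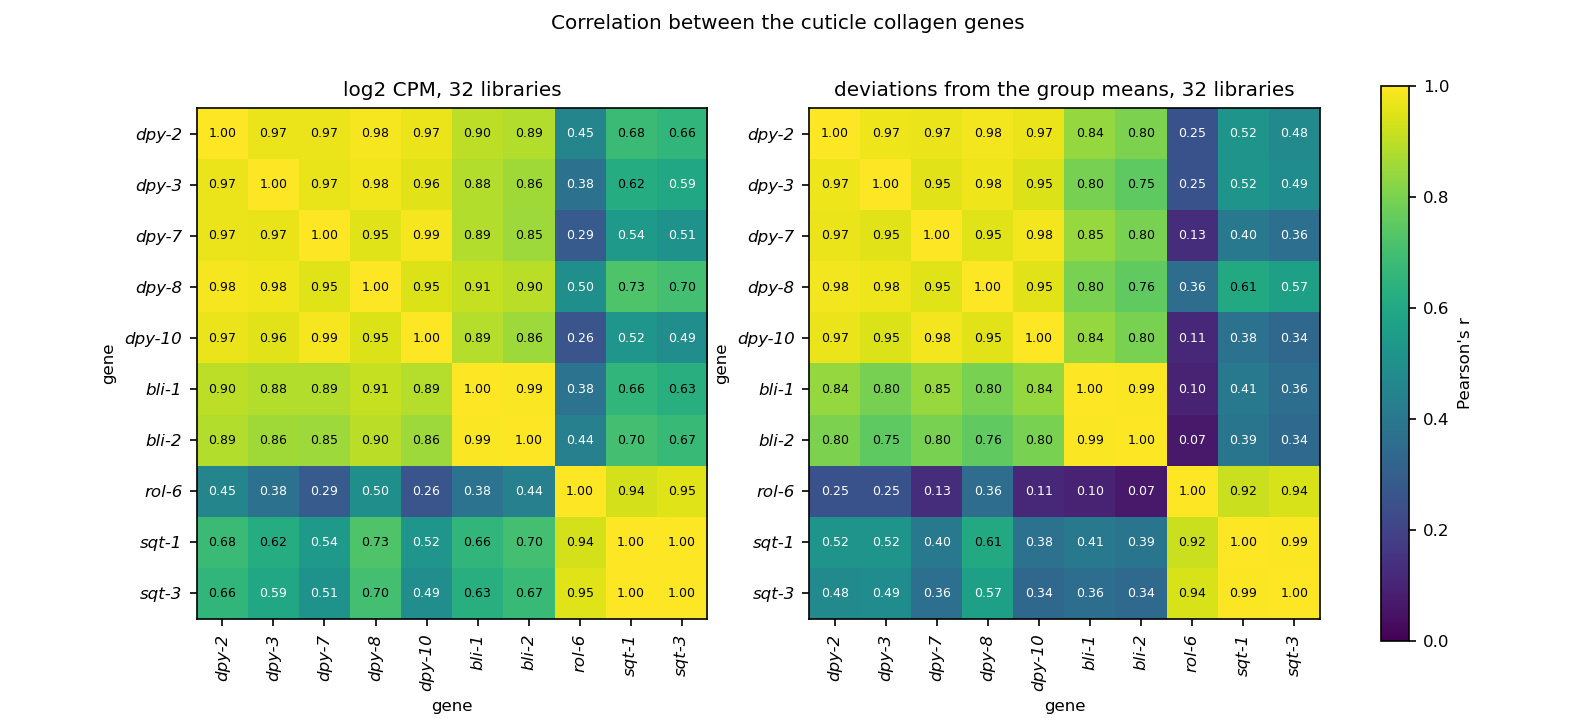
Pearson's r between each pair of the 10 genes (both axes) over 32 libraries, for log2 CPM (left) and for deviations from the group means (right). The furrow genes, the blister genes and *rol-6* with *sqt-1* and *sqt-3* form 3 blocks. In the right panel r is 0.752 to 0.846 between blister and furrow genes, and *rol-6* has at most 0.36 with any furrow or blister gene.

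The genes most like 4 of them were taken among 10523 genes whose mean reached 5 CPM. For *dpy-7* these were *lpr-3*, a lipocalin of the apical extracellular matrix (r = 0.986), *dpy-10* (0.986) and *noah-2*, a zona pellucida domain protein of that matrix (0.983). For *bli-1* they were *bli-2* (0.994), Y43D4A.5 (0.991) and Y47G6A.15 (0.983). *rol-6* was nearest to *bus-8B*, a glycosyltransferase gene (0.981), *ptc-3*, which encodes a Patched homolog (0.971), and *acs-20*, an acyl-CoA synthetase gene (0.965). For *sqt-3* they were *sqt-1* (0.998) and the collagen genes *sqt-2* (0.996) and *rol-8* (0.993).

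The 12 comparisons of 2 groups and 2 interactions were fitted in edgeR by the quasi-likelihood test, and P values were adjusted over all genes tested by Benjamini-Hochberg. A gene was called where its adjusted P was 0.05 or less and its log2 fold change was at or beyond 1 in size. Comparisons on 1 medium share their WT or *pgph-2 o/e* libraries, and those of 1 genotype on both media share libraries with them, so their values are given side by side only. None of the 10 was called by edgeR or DESeq2 in *pgph-2 o/e* relative to WT on NGM, 3 had an unadjusted P under 0.05, and 2.88% of all genes tested were called in either direction. On glucose 2 were called lower in *pgph-2 o/e* than in WT, against 13.7% of all genes, and 9 had lower levels at the adjusted P alone, against 22% of all genes. Their median log2 fold change was −0.78 there, against 0.02 over all genes tested.

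In *hlh-30* compared to WT, 4 of 10 were called lower on NGM, against 5.75% of all genes. That count was 2 without replicate 1 of *hlh-30* and also without replicate 1 or replicate 2 of WT. On glucose 5 were called lower in *hlh-30* than in WT, against 14.7% of all genes, and 8 at the adjusted P alone, against 23.7%. The count of called genes was 9 without replicate 3 of *hlh-30* on glucose and 2 without replicate 2. The medians of the 10 log2 fold changes were −0.91 on NGM and −0.97 on glucose, against 0.00 and 0.02 over all genes tested.

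On NGM 6 were called lower in *pgph-2 o/e; hlh-30* than in *pgph-2 o/e*, against 10.7% of all genes, and all 10 were lower at the adjusted P alone, against 22.6%. Every library of *pgph-2 o/e; hlh-30* was below every library of *pgph-2 o/e* in all 10 genes, which was so for 22.3% of all genes tested. On glucose 2 were called higher in *pgph-2 o/e; hlh-30* than in *pgph-2 o/e*, against 2.5% of all genes. None was called there without replicate 3 of *pgph-2 o/e; hlh-30*. Compared to *hlh-30*, the *pgph-2 o/e; hlh-30* animals had none of the 10 called by edgeR or DESeq2 on NGM, where 2.3% of all genes were called in either direction and none of the 10 had an unadjusted P under 0.05. Without replicate 4 of *hlh-30* on NGM, *bli-1* was called at −1.05 (adjusted P = 0.0187). On glucose the same comparison called none by either tool, 1 had an unadjusted P under 0.05, and 0.977% of all genes were called, while *bli-1* and *bli-2* were called without replicate 3 of *hlh-30*.

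Glucose itself was compared with NGM in each genotype. In WT none of the 10 was called by edgeR or DESeq2, 1 had an unadjusted P under 0.05, and 1.18% of all genes were called in either direction. In *pgph-2 o/e* 5 were called lower on glucose, against 13.1% of all genes, and 9 at the adjusted P alone, against 21.5%. The count of called genes was 2 without replicate 1 of *pgph-2 o/e* on NGM, as *dpy-8*, *sqt-1* and *sqt-3* then stood at −0.98, −0.95 and −0.89. In these animals 9 of 10 genes had every glucose library below every NGM library, which was so for 20.1% of all genes. In *hlh-30* none was called by edgeR or DESeq2, 1 had an unadjusted P under 0.05, and 4.48% of all genes were called. Without replicate 3 of *hlh-30* on glucose 3 genes were called, *dpy-3* at −1.05 and both blister genes. None was called by either tool in *pgph-2 o/e; hlh-30*, 4 had an unadjusted P under 0.05, and 1.83% of all genes were called.

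**Figure D3:**
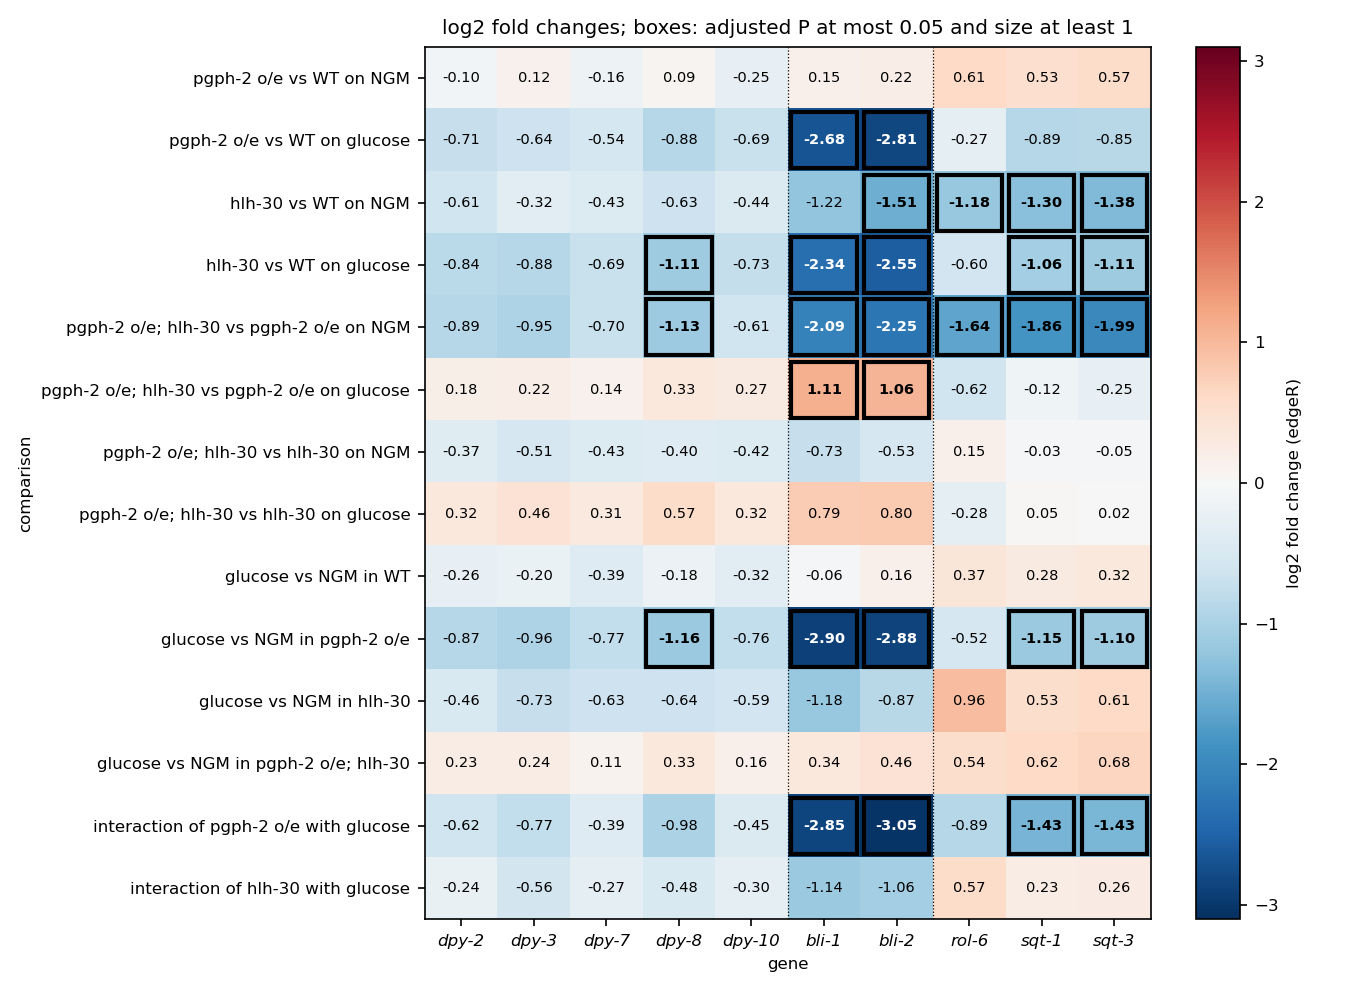
log2 fold changes from edgeR of the 10 genes (horizontal axis) in 12 comparisons and 2 interactions (vertical axis), as colours and numbers, with boxes around called genes. The lowest values are those of the blister genes, down to −3.05 for *bli-2* in the interaction of glucose with *pgph-2 o/e*.

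The furrow genes encode collagens of the furrows, and loss of any of them disrupts the grooves. *dpy-8* was the furrow gene that was called in 3 comparisons. It had 204, 125, 217 and 202 CPM in *pgph-2 o/e; hlh-30* on NGM, against 546, 347, 346 and 398 CPM in *pgph-2 o/e* on NGM. All libraries of *pgph-2 o/e; hlh-30* were below those of *pgph-2 o/e*, and replicate 2 was lower than the others of its strain. The log2 fold change was −1.13 ± 0.19 (SE) with an edgeR adjusted P of 0.000621, and it was −0.96 without replicate 1 of *pgph-2 o/e* and −0.98 without replicate 2 of *pgph-2 o/e; hlh-30*, just short of the fold limit. *dpy-2*, *dpy-3*, *dpy-7* and *dpy-10* fell by 0.89, 0.95, 0.70 and 0.61 on the log2 scale in the same comparison, past the adjusted P and short of the fold limit. *dpy-3* passed the fold limit, at −1.04, −1.04 and −1.05, without replicate 2 or 3 of *pgph-2 o/e* or replicate 4 of *pgph-2 o/e; hlh-30*.

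On glucose *dpy-8* stood at 215, 168, 189 and 172 CPM in *pgph-2 o/e*, against 402, 207, 415 and 309 CPM in WT. The lowest WT library, replicate 2, lay between the *pgph-2 o/e* libraries, so the groups overlapped. The log2 fold change was −0.88 ± 0.19 (adjusted P = 0.00474 by edgeR), and −1.06 without that WT library. In *hlh-30* on glucose *dpy-8* had 121, 146, 250.4 and 116 CPM, with replicate 3 inside the WT range, and a log2 fold change of −1.11 ± 0.30 compared to WT (adjusted P = 0.0159 by edgeR). It was −0.99 without replicate 1 of *hlh-30*, −0.98 without replicate 4 of *hlh-30* and −0.98 without replicate 3 of WT. Without replicate 3 of *hlh-30*, *dpy-2*, *dpy-3*, *dpy-7* and *dpy-10* were called as well, at −1.13, −1.20, −1.04 and −1.07, and without replicate 2 of WT *dpy-2* and *dpy-3* were, at −1.02 and −1.06.

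*dpy-7* was not called in any comparison with all libraries. It stood at 185, 146, 180.0 and 152 CPM in *pgph-2 o/e* on glucose, against 298, 254, 259 and 302 CPM in *pgph-2 o/e* on NGM. Each glucose library was below each NGM library, and the log2 fold change was −0.77 ± 0.11 (adjusted P = 0.000323 by edgeR). *dpy-2*, *dpy-3*, *dpy-8* and *dpy-10* had −0.87, −0.96, −1.16 and −0.76 in that comparison, each past the adjusted P. *dpy-3* passed the fold limit, between −1.05 and −1.01, without replicate 2 or 3 on NGM or replicate 1 or 3 on glucose. In *hlh-30* on NGM *dpy-7* had 253, 267, 288 and 118 CPM, against 282, 372, 239 and 327 CPM in WT. The first 3 libraries of *hlh-30* lay inside the WT range, and the log2 fold change of −0.43 ± 0.24 had an adjusted P of 0.24 by edgeR. None of the furrow genes passed the adjusted P in *hlh-30* compared to WT on NGM, with values between −0.63 and −0.32.

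The blister genes encode collagens of the struts, and their loss lets fluid lift the adult cuticle into blisters. *bli-1* had 92.8, 93.3, 195 and 101 CPM in *pgph-2 o/e* on glucose, against 762, 641, 825 and 783 CPM in WT on glucose. *bli-2* had 61.1, 56.3, 146 and 78 CPM in *pgph-2 o/e* on glucose, against 538, 562, 614 and 633 CPM in WT on glucose. Each library of *pgph-2 o/e* was far below each library of WT for both genes, and replicate 3 was the highest of the 4. The log2 fold changes were −2.68 ± 0.24 for *bli-1* (adjusted P = 4.57e-05) and −2.81 ± 0.28 for *bli-2* (adjusted P = 7.57e-05) by edgeR's quasi-likelihood test. A two-sided exact permutation test gave P = 0.0286 for each, the smallest that 70 relabellings allow.

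On NGM the blister genes of the same strain stood inside the range of WT. *bli-1* had 909, 829, 862 and 945 CPM in *pgph-2 o/e*, against 1082, 885, 568 and 594 CPM in WT. The WT range was wide, and the log2 fold changes were 0.15 ± 0.20 for *bli-1* and 0.22 ± 0.19 for *bli-2* (adjusted P = 0.678 and 0.519 by edgeR). Within *pgph-2 o/e*, glucose compared to NGM gave −2.90 ± 0.24 for *bli-1* and −2.88 ± 0.28 for *bli-2* (adjusted P = 9.17e-06 and 2.44e-05 by edgeR), with no overlap between the media. Within WT it gave −0.06 ± 0.19 for *bli-1* and 0.16 ± 0.18 for *bli-2* (adjusted P = 0.869 and 0.611 by edgeR).

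Loss of *hlh-30* went with low blister genes on both media, with a wide spread. On NGM *bli-2* had 207, 219, 279.6 and 47 CPM in *hlh-30*, against 723, 579.8, 405 and 384 CPM in WT. All *hlh-30* libraries were below all WT libraries, and replicate 4 was far below its own group. The log2 fold change was −1.51 ± 0.44 (adjusted P = 0.0467 by edgeR). Leaving out a library moved the adjusted P above 0.05 for replicates 1 and 2 of *hlh-30* (0.0975 and 0.0882) and for replicates 1, 2, 3 and 4 of WT (0.11, 0.107, 0.0661 and 0.0512). *bli-1* had 372, 412, 514 and 84.2 CPM in *hlh-30* on NGM, all below the WT libraries, and its log2 fold change of −1.22 ± 0.45 did not pass (adjusted P = 0.0872 by edgeR).

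On glucose *bli-1* had 40.1, 127, 395 and 42.6 CPM in *hlh-30*, against 762, 641, 825 and 783 CPM in WT. Replicate 3 was the highest of the *hlh-30* libraries and still below each WT library. *bli-1* had a log2 fold change of −2.34 ± 0.69 and *bli-2* one of −2.55 ± 0.70 (adjusted P = 0.0231 and 0.0171 by edgeR), and the adjusted P of *bli-1* was 0.0636 without replicate 2 of *hlh-30*. In *hlh-30*, glucose compared to NGM gave −1.18 ± 0.78 for *bli-1* and −0.87 ± 0.77 for *bli-2* (adjusted P = 0.32 and 0.457 by edgeR). Without replicate 3 of *hlh-30* on glucose these values were −2.30 and −1.96, with adjusted P values of 0.0267 and 0.0465.

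In the strain with both changes, the blister genes had the lowest mean of the 4 genotypes on NGM, with libraries that overlapped those of *hlh-30*. *bli-1* had 242, 80.9, 262 and 247 CPM in *pgph-2 o/e; hlh-30* on NGM, and the *pgph-2 o/e* libraries on NGM stood at 829 CPM or more. The log2 fold change to *pgph-2 o/e* was −2.09 ± 0.29 for *bli-1* and −2.25 ± 0.29 for *bli-2* (adjusted P = 0.00015 and 8.18e-05 by edgeR). On glucose the order turned round. *bli-1* had 236, 246, 327 and 236 CPM in *pgph-2 o/e; hlh-30*, against 92.8, 93.3, 195 and 101 CPM in *pgph-2 o/e*, and *bli-2* had 157, 153, 235 and 167 CPM in *pgph-2 o/e; hlh-30*, against 61.1, 56.3, 146 and 78 CPM in *pgph-2 o/e*.

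Each *pgph-2 o/e; hlh-30* library on glucose was above each *pgph-2 o/e* library, with replicate 3 the highest in both strains. *bli-1* was higher by 1.11 ± 0.22 and *bli-2* by 1.06 ± 0.26 on the log2 scale (adjusted P = 0.0087 and 0.023 by edgeR). With all 32 libraries in one fit the values were 1.14 and 1.09, with adjusted P values of 0.165 and 0.191, so neither was called. Without replicate 3 of *pgph-2 o/e; hlh-30* neither was called either, at 0.98 and 0.89, and *bli-2* lost its call without replicate 1 (0.93), 2 (0.90) or 4 (1.02) of *pgph-2 o/e* or replicate 4 of *pgph-2 o/e; hlh-30* (1.09). Compared to *hlh-30*, *bli-1* had 0.79 ± 0.64 and *bli-2* 0.80 ± 0.64 on glucose (adjusted P = 0.48 and 0.476 by edgeR). These were 1.90 and 1.88 without replicate 3 of *hlh-30*, with adjusted P values of 0.00525 and 0.00802.

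*rol-6*, *sqt-1* and *sqt-3* encode collagens whose mutant forms make animals roll or shorten, and *rol-6* is the common marker for transgenic worms. On NGM they were lower with loss of *hlh-30*. *sqt-3* had 584, 627, 712 and 274 CPM in *hlh-30* on NGM, against 1897, 1439, 1166 and 1069 CPM in WT. *rol-6* had 146, 162, 184 and 86.4 CPM in *hlh-30* on NGM, against 426, 339, 265 and 246 CPM in WT. The groups did not overlap for either gene. The log2 fold changes were −1.38 ± 0.28 for *sqt-3*, −1.30 ± 0.29 for *sqt-1* and −1.18 ± 0.23 for *rol-6* (adjusted P = 0.0136, 0.0199 and 0.0131 by edgeR).

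The call of *rol-6* rested on its size, which was −0.998 without replicate 4 of *hlh-30* and −0.995 without replicate 1 of WT. *sqt-1* stood at −1.32 (adjusted P = 0.054) without replicate 1 of *hlh-30* and at −1.28 (adjusted P = 0.0538) without replicate 2 of WT. *sqt-3* had 636, 453, 519.6 and 503 CPM in *pgph-2 o/e; hlh-30* on NGM, against 2900.4, 1749, 1732 and 2016 CPM in *pgph-2 o/e* on NGM. The lowest library of *pgph-2 o/e* was well above the highest of *pgph-2 o/e; hlh-30*, and replicate 1 of *pgph-2 o/e* was higher than the others of its group. The log2 fold changes were −1.99 ± 0.19 for *sqt-3*, −1.86 ± 0.18 for *sqt-1* and −1.64 ± 0.14 for *rol-6* (adjusted P = 1.18e-05, 1.04e-05 and 4.18e-06 by edgeR).

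*rol-6* had 608, 443, 449.8 and 483 CPM in *pgph-2 o/e* on NGM, all above the 246 to 426 CPM in WT. The log2 fold change of 0.61 ± 0.18 did not pass (adjusted P = 0.0666 by edgeR).

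On glucose the set split. *sqt-3* had 1389, 1088, 684 and 824 CPM in *pgph-2 o/e*, against 1483, 1879.9, 1675 and 1956 CPM in WT, with no overlap and a log2 fold change of −0.85 ± 0.19 (adjusted P = 0.00504 by edgeR). *rol-6* had 499, 411, 216 and 287 CPM in *pgph-2 o/e*, against 352, 461, 382 and 458 CPM in WT, and replicate 1 of *pgph-2 o/e* was above each WT library. Its log2 fold change of −0.27 ± 0.22 did not pass (adjusted P = 0.358 by edgeR). Without replicate 1 of *pgph-2 o/e* on glucose, *sqt-1* and *sqt-3* were called at −1.07 and −1.05, which made 4 of 10 genes called lower. In *hlh-30* compared to WT on glucose *sqt-1* and *sqt-3* had −1.06 ± 0.15 and −1.11 ± 0.15, and *rol-6* had −0.60 ± 0.15 (adjusted P = 0.00134, 0.00123 and 0.0117 by edgeR). Without replicate 2 of *hlh-30*, *sqt-1* stood at −0.93 and *sqt-3* at −0.97.

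*rol-6* passed the adjusted P, with higher levels on glucose than on NGM, in both strains with the *hlh-30* allele. It had 323, 209, 257 and 326 CPM in *hlh-30* on glucose, against 146, 162, 184 and 86.4 CPM in *hlh-30* on NGM. The media did not overlap, and the log2 fold change was 0.96 ± 0.23 (adjusted P = 0.027 by edgeR), short of the fold limit, with 1.10 without replicate 3 on NGM and 1.08 without replicate 2 on glucose. Glucose gave 0.54 ± 0.09 for *rol-6*, 0.62 ± 0.09 for *sqt-1* and 0.68 ± 0.10 for *sqt-3* in *pgph-2 o/e; hlh-30* (adjusted P = 0.00376, 0.00172 and 0.00122 by edgeR), again without overlap and short of the fold limit. At the adjusted P alone, 1 of 10 genes passed in *hlh-30*, against 13% of all genes in either direction, and 3 of 10 in *pgph-2 o/e; hlh-30*, against 11.2%. In WT the values of *rol-6*, *sqt-1* and *sqt-3* had the same sign, with 0.37 ± 0.16, 0.28 ± 0.16 and 0.32 ± 0.16 (adjusted P = 0.207, 0.298 and 0.258 by edgeR), and the interaction of *hlh-30* with glucose for *rol-6* was 0.57 ± 0.31 (adjusted P = 0.287 by edgeR). In *pgph-2 o/e* the glucose values were −0.52 ± 0.23, −1.15 ± 0.21 and −1.10 ± 0.24 for the same genes, and that of *sqt-3* was −0.96 without replicate 3 on glucose.

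The response to glucose in *pgph-2 o/e* was compared with that in WT by an interaction term over 16 libraries. *bli-1* and *bli-2* had −2.85 ± 0.32 and −3.05 ± 0.35, and *sqt-1* and *sqt-3* had −1.43 ± 0.29 and −1.43 ± 0.32 (adjusted P = 1.51e-05, 1.51e-05, 0.00112 and 0.00227 by edgeR). These 4 of 10 were called lower, against 14.2% of all genes, and 7 were lower at the adjusted P alone, against 19.6%. *dpy-8* had −0.98 ± 0.29 and *rol-6* −0.89 ± 0.31 (adjusted P = 0.0133 and 0.0367 by edgeR), *dpy-3* had −0.77 (adjusted P = 0.0498 by edgeR), and *dpy-2*, *dpy-7* and *dpy-10* did not pass, with −0.62, −0.39 and −0.45. *dpy-8* passed the fold limit, between −1.15 and −1.02, without any of replicates 2 and 3 of *pgph-2 o/e* on NGM, replicate 1 of *pgph-2 o/e* on glucose, replicate 2 of WT on NGM and replicates 2 and 4 of WT on glucose. *rol-6* did so at −1.10 without replicate 1 of *pgph-2 o/e* on glucose and at −1.06 without replicate 1 of WT on NGM. The interaction of *hlh-30* with glucose called none of the 10 by edgeR or DESeq2, none had an unadjusted P under 0.05, and 0.523% of all genes were called in either direction. Without replicate 3 of *hlh-30* on glucose, *bli-1* and *bli-2* had interaction values of −2.27 and −2.15, with adjusted P values of 0.0305 and 0.0401.

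Ratios within a library show how far the sets came apart. The level of *bli-1* relative to *sqt-3* was 0.0668 to 0.285 in *pgph-2 o/e* on glucose, against 0.341 to 0.514 in WT on glucose and 0.313 to 0.498 in *pgph-2 o/e* on NGM. In *hlh-30* on glucose it ran from 0.0446 to 0.42, with replicates 1 and 4 at the low end. The ratio of *sqt-3* to *sqt-1* stayed between 1.79 and 2.19 in the 32 libraries, and that of *bli-1* to *bli-2* between 1.14 and 1.88. *dpy-7* relative to *rol-6* was 0.317 to 0.941 in *hlh-30*, 0.356 to 0.835 in *pgph-2 o/e* and 0.338 to 0.843 in WT on glucose, ranges that largely overlap. On NGM it was 1.36 to 1.74 in *hlh-30*, against 0.661 to 1.33 in WT. These are ratios of CPM in the same library and carry no test.

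**Figure D4:**
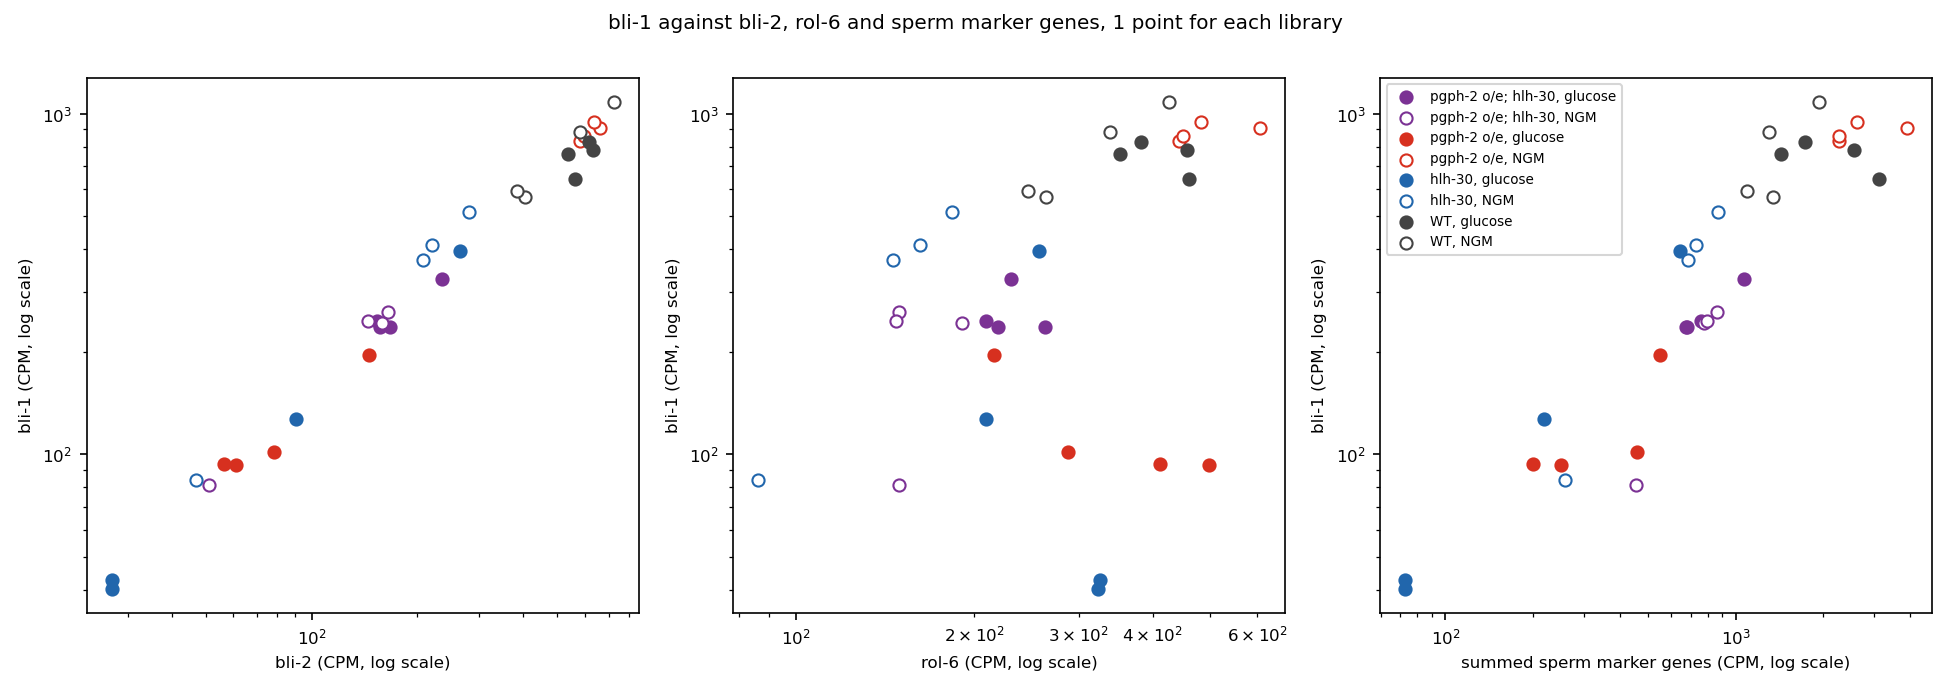
*bli-1* (vertical axes) against *bli-2*, *rol-6* and the summed sperm marker genes (horizontal axes), all in CPM on log scales, 1 point for each of 32 libraries, filled on glucose and open on NGM. *bli-1* follows *bli-2* closely, while libraries of *pgph-2 o/e* and *hlh-30* on glucose have 40.1 to 395 CPM of *bli-1* at 209 to 499 CPM of *rol-6*.

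Other genes of the cuticle were read from lists chosen with earlier results of these data known. Of the other named cuticle collagens, 7 of 16 tested were called lower and 1 higher in *pgph-2 o/e* relative to WT on glucose. Of all genes, 13.7% were called lower and 5.44% higher there. In *hlh-30* compared to WT, 12 of 15 were called lower and 1 higher on NGM, against 5.75% and 1.2% of all genes. On glucose 9 of 15 were called lower and 1 higher in *hlh-30*, against 14.7% and 5.89%. On NGM 10 of 15 were called lower and 2 higher in *pgph-2 o/e; hlh-30* than in *pgph-2 o/e*, against 10.7% and 7.58%. *col-19*, a collagen gene of the adult stage, had −5.68 in *pgph-2 o/e* relative to WT on glucose and −4.44 in *hlh-30* compared to WT on NGM, on the log2 scale. It had 0.907 to 2.32 CPM in *pgph-2 o/e* on glucose, against 33.7 to 137 CPM in WT on glucose. *col-7* had −8.28 and *col-119* −5.31 in *pgph-2 o/e* relative to WT on glucose, and *col-10*, the 1 that was higher there and named after its value was seen, had 2.11.

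Among the molting genes on glucose, 4 of 16 were called lower and 1 higher than in WT, both in *pgph-2 o/e* and in *hlh-30*. The shares of all genes there were 13.7% lower and 5.44% higher for *pgph-2 o/e*, and 14.7% and 5.89% for *hlh-30*. In *hlh-30* on NGM 4 of 16 were called lower than in WT and none higher, against 5.75% and 1.2% of all genes. On NGM 6 of 16 were called lower and 1 higher in *pgph-2 o/e; hlh-30* than in *pgph-2 o/e*, against 10.7% and 7.58% of all genes. *mlt-10*, needed to leave the old cuticle, had −2.43 in the last comparison, *mlt-9* had −1.87, and *nas-37*, which encodes a protease that sheds the cuticle, had −1.43. In *pgph-2 o/e* relative to WT on glucose *qua-1* had −1.36, *nas-37* −1.23 and *mlt-10* −1.09, and *ptr-23*, a Patched-related gene and the 1 called higher, had 1.27.

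Of 13 genes for collagen processing and crosslinking, 3 were called higher and none lower in *pgph-2 o/e* relative to WT on glucose, where 5.44% of all genes were called higher. They were *mlt-7*, a peroxidase, *doxa-1*, a maturation factor of the dual oxidase, and *tsp-15*, a tetraspanin needed for crosslinking, with 1.60, 1.13 and 1.00. The same 3 had 1.53, 1.21 and 1.16 in *hlh-30* compared to WT on glucose, where 5.89% of all genes were called higher. Only 4 of the 13 were above 0 in each comparison, with median log2 fold changes of −0.20 in *pgph-2 o/e* and −0.16 in *hlh-30*. Of 12 regulators, 2 were called higher and none lower in each of these comparisons. *nhr-25*, a nuclear receptor gene of the epidermis and the molt, rose by 2.08 in *pgph-2 o/e* and by 2.09 in *hlh-30*, and *nhr-85*, another nuclear receptor gene, by 1.15 and 1.00. *nhr-25* had 33.6, 35.1, 19.3 and 23.1 CPM in *pgph-2 o/e* on glucose, against 7.14, 6.07, 6.18 and 6.21 CPM in WT on glucose.

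A list of 8 genes read for the response to furrow damage did not move one way. Whether each of them is induced by loss of furrows was not tested. Of 7 tested in *pgph-2 o/e* relative to WT on glucose, 1 was called higher and 2 lower, against 5.44% and 13.7% of all genes. There *nlp-29*, an antimicrobial peptide gene, had 1.20, the small heat shock gene *hsp-16.2* −1.57 and *osr-1* −1.52. On NGM 4 of 8 were called higher and 2 lower in *pgph-2 o/e; hlh-30* than in *pgph-2 o/e*, against 7.58% and 10.7%. In that comparison *nlp-29* had 3.20 and *gpdh-1*, a glycerol-3-phosphate dehydrogenase gene induced by osmotic stress, had 2.81. The 2 lower ones were *hsp-16.2* at −2.90 and *osr-1* at −1.71. None of the 4 basement membrane collagen genes was called in any of the 14 fits.

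In *pgph-2 o/e* and in *hlh-30* compared to WT on glucose, most germ line markers and most vitellogenin genes were called lower, as were the blister genes. No marker of the epidermis (8), body wall muscle (5) or neurons (5) was called in these comparisons. None of 8 epidermis markers was called in any of the 14 fits, and none was at 0 in any group. Their summed levels were 1335 to 1470 CPM in *pgph-2 o/e* and 1195 to 1308 CPM in WT on glucose. Summed neuron markers on glucose were 359 to 397 CPM in *pgph-2 o/e*, 368 to 436 CPM in *hlh-30* and 280 to 306 CPM in WT. Those of muscle were 9212 to 10150, 5988 to 6614 and 7749 to 8831 CPM in the same order. The neuron marker *unc-10* was called higher in *pgph-2 o/e; hlh-30* than in *pgph-2 o/e* on NGM (1.20), with glucose in *pgph-2 o/e* (1.36) and in its interaction (1.26). Of 32 sperm markers, mostly major sperm protein genes with near-identical copies, all 32 were called lower in *pgph-2 o/e* and all 32 in *hlh-30* compared to WT on glucose. Of all genes, 13.7% and 14.7% were called lower there. The summed level of the sperm markers was 201 to 551 CPM in *pgph-2 o/e*, 72.6 to 644 CPM in *hlh-30* and 1432 to 3129 CPM in WT on glucose. On NGM it was 455 to 862 CPM in *pgph-2 o/e; hlh-30*, 259 to 872 CPM in *hlh-30*, 2275 to 3891 CPM in *pgph-2 o/e* and 1098 to 1938 CPM in WT. No sperm or oocyte marker was at 0 throughout any group.

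Over the 32 libraries, the mean log2 CPM of the sperm markers had r of 0.938 with *bli-1*, 0.949 with *bli-2* and 0.366 with *rol-6*, and 0.887, 0.922 and 0.0186 after removal of the group means. With the furrow genes r was 0.736 to 0.811, with *sqt-1* 0.627 and with *sqt-3* 0.600. After removal of the group means these were 0.580 to 0.612, 0.336 and 0.293. For the molting genes r was 0.771 to 0.869 with the furrow genes, 0.771 with *bli-1* and 0.785 with *bli-2*. It was 0.758 with *rol-6*, 0.882 with *sqt-1* and 0.873 with *sqt-3*. After removal of the group means, r of the molting genes was 0.761 to 0.834, 0.645, 0.587, 0.603, 0.731 and 0.713 in the same order. For the oocyte markers r was 0.810 with *bli-1*, 0.846 with *bli-2*, 0.828 with *sqt-1* and 0.817 with *sqt-3*. It was 0.531 to 0.711 with the furrow genes and 0.667 with *rol-6*. After removal of the group means, r of the oocyte markers was 0.599 with *bli-1*, 0.659 with *bli-2*, 0.501 with *sqt-1* and 0.483 with *sqt-3*. It was then 0.180 to 0.280 with the furrow genes and 0.288 with *rol-6*. Also on glucose, 10 of 16 oocyte markers were called lower in *pgph-2 o/e* than in WT, against 13.7% of all genes. So were 6 of 9 intestine markers, which are the vitellogenin genes *vit-1* to *vit-6*. On NGM, where no collagen gene of the 10 was called, 10 of 32 sperm markers and 12 of 16 oocyte markers were called higher in *pgph-2 o/e* than in WT, as were 1.7% of all genes. The part of these changes in the levels of the collagen genes was not tested.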

How the data were processed

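Whole-animal poly(A) RNA of 32 libraries was sequenced, 4 replicates in each of 8 groups, grouped by their GEO labels. The authors aligned reads with Hisat2 and counted them per gene with featureCounts (version 1.5.0-p3 in the submitters' processing notes, build WBcel235), and the deposited table holds raw counts, gene positions and a gene length. From these counts, TMM-scaled CPM, log2 CPM (prior count of 2) and fold changes were computed in edgeR 4.0.16 (R 4.3.3, limma 3.58.1). Each comparison was fitted on its own groups by the quasi-likelihood test, after filterByExpr (minimum count 10, minimum total 15), with P values adjusted over all genes tested by Benjamini-Hochberg. A gene was called where its adjusted P was 0.05 or less and its log2 fold change was at or beyond 1 in size. There were 7 alternatives beside leaving out each library: DESeq2 1.42.0, DESeq2 size factors in edgeR, no filter, at least 10 counts in every library, all 32 libraries in one fit, the adjusted P alone, and the replicate block. The fit was tested on simulated data.

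The 10 genes and the gene lists were chosen with earlier results of these data known. All 10 are named, with at most 4 genes of a cuticle gene list in each comparison, mostly those with the largest called changes. Also named are the 3 genes most like each of 4 members by Pearson's r. Replicate numbers are only numbers in the labels. Deviations from the group means correlated over 0.1 in every pair in *pgph-2 o/e; hlh-30* compared to *hlh-30* on glucose alone (0.193 to 0.421 over 12414 genes), where the replicate block left 0 of the 10 called. Replicates of a group differed by more than sampling noise (lowest chi-square per degree of freedom 4.77 over 48 pairs). Total counts were 16750042 to 29794842 per library, and ribosomal RNA took 5.11% to 8.03% of counts.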

Additional observations from a re-analysis of the deposited data

Results flagged for a closer look

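In 8 of 80 combinations of gene and group, 1 of 4 libraries lay far from the others by Dixon's test, which chance alone does in about 1 in 20. In *hlh-30* on NGM replicate 4 had 74.4 CPM of *dpy-2*, against 199.5 to 222 CPM in the others, and 80.2 CPM of *dpy-3*, against 205 to 219.7 CPM. In *pgph-2 o/e; hlh-30* on NGM replicate 2 had 125 CPM of *dpy-8*, against 202 to 217 CPM, and 80.9 CPM of *bli-1*, against 242 to 262 CPM, and replicate 1 had 191 CPM of *rol-6*, against 147 to 149 CPM. Replicate 3 had 327 CPM of *bli-1* in *pgph-2 o/e; hlh-30* on glucose, against 236 to 246 CPM, and 195 CPM in *pgph-2 o/e* on glucose, against 92.8 to 101 CPM. In *hlh-30* on glucose replicate 2 had 301 CPM of *sqt-1*, against 445 to 474 CPM.

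The response to glucose differed between *pgph-2 o/e* and WT by the interaction term for *bli-1* (−2.85), *bli-2* (−3.05), *sqt-1* (−1.43) and *sqt-3* (−1.43), each past the adjusted P and the fold limit in edgeR.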

How the results depend on the processing

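Of 2260 log2 fold changes of the 10 genes under alternatives, 2142 kept their direction and their side of the limits, 31 lost a call, 63 gained one and 24 changed sign. With the adjusted P alone, the genes called lower numbered 9 in *pgph-2 o/e* relative to WT on glucose, 8 in *hlh-30* compared to WT on glucose, 10 in *pgph-2 o/e; hlh-30* compared to *pgph-2 o/e* on NGM, 9 with glucose in *pgph-2 o/e* and 7 in the interaction of glucose with *pgph-2 o/e*, and those called in either direction with glucose 1 in *hlh-30* (13% of all genes) and 3 in *pgph-2 o/e; hlh-30* (11.2% of all genes). With all 32 libraries in one fit, 0 genes were called higher in *pgph-2 o/e; hlh-30* than in *pgph-2 o/e* on glucose. At least 10 counts in every library moved the adjusted P of *bli-2* in *hlh-30* compared to WT on NGM to 0.0508, and added *dpy-8* in the interaction of glucose with *pgph-2 o/e* (−1.02, adjusted P = 0.00981 by edgeR). DESeq2 called as many of the 10 as edgeR in each comparison.

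The replicate block called 1 gene with glucose in *hlh-30* (*bli-1* at −1.54, adjusted P = 0.0436 by edgeR) and added *bli-1* in *hlh-30* compared to WT on NGM (−1.42, adjusted P = 0.0478), and it turned *sqt-1* to 0.0469 and *sqt-3* to 0.0198 in *pgph-2 o/e; hlh-30* compared to *hlh-30* on NGM. It changed no other call. Outside the pairing given in the methods, libraries share only a number, with the lowest correlation of a pair between −0.498 and −0.0395 and the highest between 0.0133 and 0.589, and at most 1 of 4 libraries closest to its own number. In both comparisons where the block added *bli-1*, 3 of 4 pairs were over 0.1, and the lowest was −0.256 with glucose in *hlh-30* and −0.379 in *hlh-30* compared to WT on NGM.

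Leaving out 1 library gave 2 to 4 genes called lower in *pgph-2 o/e* relative to WT on glucose, 2 to 4 on NGM and 2 to 9 on glucose in *hlh-30* compared to WT, 5 to 7 in *pgph-2 o/e; hlh-30* compared to *pgph-2 o/e* on NGM, 2 to 6 with glucose in *pgph-2 o/e* and 4 to 6 in its interaction. It gave 0 to 2 genes called higher in *pgph-2 o/e; hlh-30* than in *pgph-2 o/e* on glucose, and in either direction 0 to 1 on NGM and 0 to 2 on glucose compared to *hlh-30*, 0 to 3 with glucose in *hlh-30* and 0 to 2 in its interaction. Values that changed sign were uncalled. They ran from −0.23 to 0.0155 for *dpy-2*, −0.082 to 0.24 for *dpy-3* and −0.076 to 0.24 for *dpy-8* in *pgph-2 o/e* relative to WT on NGM, and from −0.25 to 0.0535 for *sqt-1* in *pgph-2 o/e; hlh-30* compared to *pgph-2 o/e* on glucose. Compared to *hlh-30*, the same strain had −0.0313 to 0.28 for *rol-6*, −0.27 to 0.14 for *sqt-1* and −0.27 to 0.10 for *sqt-3* on NGM, and −0.0795 to 0.11 for *sqt-1* and −0.11 to 0.0882 for *sqt-3* on glucose. With glucose, *bli-1* had −0.19 to 0.13 in WT, *dpy-7* −0.0299 to 0.18 in *pgph-2 o/e; hlh-30*, and *sqt-1* −0.0067 to 0.41 in the interaction of *hlh-30*. The cause of these changes was not tested.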
